A study of Homo sapiens with 6 samples.

Results

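The genes described here are 10 feedback regulators and transcriptional outputs of the RAS-MAPK pathway: DUSP1, DUSP4, DUSP5, DUSP6, SPRY2, SPRY4, ETV4, ETV5, EGR1 and PHLDA1. A gene was included where the array annotation gave its symbol as the only symbol of a feature, and where several features qualified, that with the highest mean over all 6 arrays stood for it. Of the 10 genes, 9 were found in this way among 14884 named genes, and PHLDA1 had no named feature and was not analysed here. The arrays measured total RNA of SUM159, an established human breast carcinoma line, in 2 groups of 3 samples. The decitabine group had 1 µM decitabine for 72 h with medium replaced every day, and the untreated group had control medium for 72 h. Titles of the untreated samples also carry the 1 µM dose, and these samples were taken as untreated from their treatment label. The treatment protocol writes the drug's name as a deoxy-azacytidine, and other labels write decitabine. Decitabine is a nucleoside analogue that replicating cells take up into their DNA, where it traps DNA methyltransferases and so lowers methylation. The comparison asks which genes change after exposure to it. The labels give no genetic change or further agent for either group, and do not mention whether controls had the drug's solvent. Whether the 3 samples of a group came from separate cultures is not stated either, and the p-values below measure only how these samples spread, which may be technical.

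In this pathway, a growth factor binds a receptor tyrosine kinase, which loads RAS with GTP through adaptor proteins, and RAS starts the kinase cascade from RAF through MEK to ERK. Active ERK switches on immediate-early genes such as EGR1, and the ETS factors ETV4 and ETV5 are among the genes whose RNA follows ERK activity over longer times. The same output includes its own brakes: the dual-specificity phosphatases of the DUSP family remove phosphate from ERK and related kinases, and the Sprouty proteins dampen signalling between the receptor and RAF. RNA of these feedback genes is widely read as a measure of ERK output in tumour cells. SUM159 is known to carry an activating HRAS mutation, which feeds into this cascade below the receptors. No phosphorylated protein was measured here, so the values below are RNA levels only, over the whole culture, where fewer cells with a transcript and less transcript per cell cannot be told apart.

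Expression is given as the deposited values, read as log2, so that a difference of 1 is 2-fold. Both arrays of replicate 1 stood apart: their medians over all 48226 features were 3.03 (untreated) and 2.98 (decitabine), while the medians of the other 4 arrays were 2.29 to 2.42. Among markers of a mesenchymal-like line without hormone receptors, VIM ran from 8.66 to 9.68 and FN1 from 10.39 to 11.14, while ESR1 ran from 1.50 to 2.43 and PGR from 1.54 to 2.95. Not every marker went with that label: TWIST1, listed as high, ran from 1.91 to 3.40, and KRT18 and GATA3, listed as low, ran from 7.57 to 7.97 and from 5.32 to 5.79. The epithelial gene EPCAM was higher in all decitabine arrays, with a change of 1.10 (SE 0.31, limma adjusted p 0.127, and 0.00829 with the block), and the mesenchymal factor ZEB1 changed by -0.51 (SE 0.26, limma adjusted p 0.480, and 0.0438 with the block). VIM was lower in every decitabine array, with a change of -0.55 (SE 0.23, limma adjusted p 0.317, and 0.104 with the block). AXL, also listed as a mesenchymal marker, changed by -1.79 (SE 0.19, limma adjusted p 0.00361, and 0.00138 with the block). Of the 7 measured mesenchymal markers, 3 had changes below 0, AXL, VIM and ZEB1, and 4 above, with a median of 0.04. Of the 10 measured luminal markers, 6 had changes below 0 and 4 above, with a median of -0.04. The part of EPCAM, ZEB1, VIM and AXL in the results below was not tested. ERBB2 was not analysed here. Of the defining markers of other cells, PECAM1 of endothelium ran from 1.55 to 2.83 and the fibroblast genes DCN and LUM from 1.47 to 2.47, and PTPRC and COL1A1 were not analysed here. Summed over the 3 measured of 9 leukocyte markers (CD14, LYZ and CD68), values were 10.48 to 11.25 in untreated and 11.55 to 12.56 in decitabine arrays. This sum lay higher in every decitabine array, and its part was not tested either. Single values of the 3 genes ran from 1.04 to 7.28, and their changes from -0.09 to 0.72. In 2 of them every decitabine array was above every untreated array, against 11.3% of all genes. Their lowest limma adjusted p was 0.115 without the block. With the block 1 of the 3 was higher at an adjusted p under 0.05, against 7.79% of all genes. The corresponding sums overlapped between the groups for 4 endothelial markers, whose single values reached 4.00, and for 2 fibroblast markers.

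SPRY4 and ETV5 fell after decitabine, and SPRY2 and DUSP5 were lower in all 3 decitabine arrays by a like amount. The 4 genes had changes of -1.28 to -1.46 on the log2 scale, or 2.42-fold to 2.75-fold lower. Tests were made with limma across all 14884 genes, and a gene is said to have risen or fallen where the Benjamini-Hochberg adjusted p was under 0.05. By this rule 2 of the 9 genes fell and none rose, against 3.03% of all genes called, 2.01% that rose and 1.02% that fell. At an unadjusted p under 0.05, 4 were lower and 0 higher, against 5.79% of all genes lower and 8.13% higher. With the replicate number as a block in the limma fit, SPRY4, ETV5, SPRY2 and DUSP5 all fell and none rose, against 13.2% of all genes called, 7.79% that rose and 5.37% that fell. These 4 genes also had the 4 changes of -1 or below, a size that 1.58% of all genes reached. At an unadjusted p under 0.05 in that fit, 6 were lower and 1, DUSP4, was higher, against 12.9% of all genes lower and 15.4% higher. The median change of the 9 genes was -0.46, and in the same-numbered pairs it was -0.71, -0.58 and -0.68, while the median of all genes was -0.02. The genes were proposed with results of these data known, so these counts describe them and were not tested as a list.

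**Figure D1:**
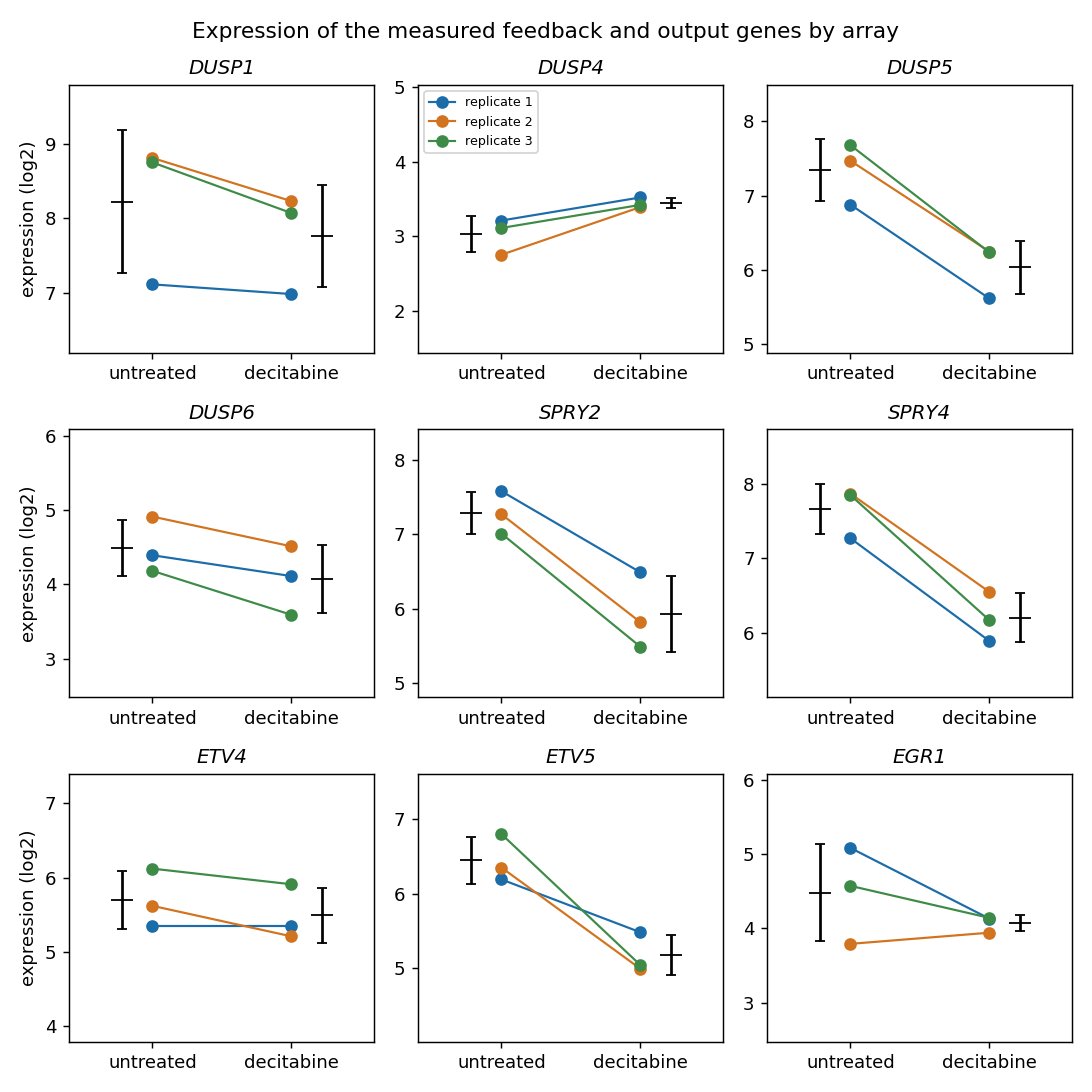
Expression (log2, y axis, each panel spanning the same width) of the 9 measured genes in untreated and decitabine arrays (x axis). Coloured lines join arrays of the same replicate number, and black bars give the mean and SD of 3 arrays. SPRY4, ETV5, SPRY2 and DUSP5 have all decitabine points below all untreated points, DUSP4 has them above, and the other 4 genes overlap.

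SPRY4 encodes a Sprouty protein, an inhibitor of the step from growth factor receptors to RAF. Its untreated values were 7.27, 7.87 and 7.85, and its decitabine values were 5.89, 6.55 and 6.17, in the order of replicates 1 to 3. The groups did not overlap, and replicate 1 was the lowest array in each of them. The untreated mean was 7.66 ± 0.34 and the decitabine mean 6.20 ± 0.33 (SD, n = 3 each), a change of -1.46 (SE 0.27, 95% confidence interval -2.07 to -0.85, limma adjusted p = 0.0276). Within pairs, decitabine was lower by similar steps, with differences of -1.38, -1.32 and -1.68. Leaving out any decitabine array, or replicate 2 or 3 of the untreated group, ended the call (limma adjusted p of 0.0644 to 0.139), as did other settings: it was lost with each array centred on its median (0.102), and when adjusted over all features (0.0545).

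SPRY2 encodes another Sprouty protein of the same action. Its values were 7.58, 7.27 and 7.01 in untreated and 6.49, 5.82 and 5.49 in decitabine arrays. Every decitabine array was below every untreated array, and replicate 1 was the highest in both groups, the reverse of SPRY4. The untreated mean was 7.29 ± 0.29 and the decitabine mean 5.93 ± 0.51 (SD, n = 3 each), a change of -1.35 (SE 0.30). Its limma adjusted p was 0.0575 without the block and 0.00431 with it, and the pair differences were -1.09, -1.45 and -1.52. Beside the block, which removes the shared difference between replicate numbers, SPRY2 passed under quantile normalization, median centring, the filter on dim genes and the variance trend, without decitabine replicate 1, and without both arrays of replicate 1. The 95% confidence interval of the change was -2.04 to -0.66 without the block and -1.70 to -1.01 with it.

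Both Sprouty genes were lower in all decitabine arrays, and the sequences at their starts are shown for that reason. RefSeq's promoter table (GRCh38.p14) gives windows from 250 bases before to 50 bases after a transcript start. Windows of 5 of the 9 genes were analysed: SPRY2, SPRY4, DUSP1, DUSP6 and EGR1. Promoter windows of the other 4 genes were not analysed here. SPRY4 has a single listed start on chromosome 5, at the window chr5:142324198-142324497 on the minus strand. SPRY2 has 3 listed starts on chromosome 13, and the most upstream is shown, chr13:80341077-80341376 on the minus strand. The window of DUSP6, chr12:89352452-89352751 on the minus strand, is set beside them as that of a feedback gene with a smaller change. Capitals mark CG dinucleotides, the sites that DNA methyltransferases methylate.
SPRY4: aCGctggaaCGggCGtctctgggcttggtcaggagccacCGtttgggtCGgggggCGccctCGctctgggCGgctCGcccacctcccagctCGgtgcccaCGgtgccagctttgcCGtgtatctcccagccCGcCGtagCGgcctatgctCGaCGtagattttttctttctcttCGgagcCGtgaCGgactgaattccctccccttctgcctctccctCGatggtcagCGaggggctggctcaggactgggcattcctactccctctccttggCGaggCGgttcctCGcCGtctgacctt
SPRY2: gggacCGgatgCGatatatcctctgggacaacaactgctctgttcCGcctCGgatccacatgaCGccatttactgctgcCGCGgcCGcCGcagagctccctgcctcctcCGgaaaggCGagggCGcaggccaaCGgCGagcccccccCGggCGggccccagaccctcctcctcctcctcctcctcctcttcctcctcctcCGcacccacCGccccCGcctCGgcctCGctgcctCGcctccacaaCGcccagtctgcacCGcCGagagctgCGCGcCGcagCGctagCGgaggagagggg
DUSP6: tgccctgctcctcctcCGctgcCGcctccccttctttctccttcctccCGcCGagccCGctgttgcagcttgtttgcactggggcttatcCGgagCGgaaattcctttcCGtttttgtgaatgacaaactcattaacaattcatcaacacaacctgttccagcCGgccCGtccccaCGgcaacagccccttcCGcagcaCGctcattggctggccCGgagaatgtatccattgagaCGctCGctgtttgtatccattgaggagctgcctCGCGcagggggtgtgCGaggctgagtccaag
SPRY4 had 26 CG dinucleotides in its window, SPRY2 had 30 and DUSP6 had 19, against a median of 14 over the 35116 windows of the table. The other 2 starts of SPRY2 had 15 and 6. The windows of DUSP1 and EGR1, genes that were not called in either fit, had 36 and 33, more than those of SPRY4 and SPRY2. Methylation was not measured, so these counts describe the sequence only. Of 5 motifs searched on both strands, the EGR site GCGNGGGCG matched once in the SPRY4 window, 195 bases before the start, and in 2 places in the SPRY2 window, 134 and 41 bases before the start. The EGR site was absent from the windows of the other 2 SPRY2 starts, and was found in 9.43% of all windows. None of the CArG box, the cyclic AMP response element TGACGTCA, the AP-1 site TGANTCA or the ETS site CCGGAAG matched in the SPRY4, SPRY2 or DUSP6 windows, and 1.29%, 1.85%, 7.71% and 10.3% of all windows held them.

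DUSP5 encodes a nuclear phosphatase that acts on ERK. Its values were 6.88, 7.47 and 7.68 in untreated and 5.62, 6.25 and 6.24 in decitabine arrays. Every decitabine array was lower, by -1.26, -1.22 and -1.44 in the 3 pairs, the narrowest spread of pair differences among the 9 genes (0.22). The untreated mean was 7.34 ± 0.41 and the decitabine mean 6.04 ± 0.36 (SD, n = 3 each), a change of -1.31 (SE 0.29, limma adjusted p = 0.0569, and 0.00349 with the block). A second, dimmer feature of DUSP5 read 2.87, 2.68 and 3.17 in untreated and 2.39, 2.16 and 3.04 in decitabine arrays, a change of -0.38 (SE 0.30). With both features averaged, the change of DUSP5 was -0.84 and its limma adjusted p was 0.145, so the size of its change depends on which feature is read.

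DUSP6 encodes the cytoplasmic phosphatase of ERK and is among the most used readouts of ERK activity. Its values were 4.39, 4.91 and 4.18 in untreated and 4.11, 4.51 and 3.59 in decitabine arrays. The groups overlapped, while each decitabine array was below its same-numbered untreated array, by -0.28, -0.40 and -0.59. The change of -0.42 (SE 0.30) did not pass the test, with a limma adjusted p of 0.714, or 0.0898 with the block. Its 95% confidence interval was -1.12 to 0.28 without the block and -0.74 to -0.11 with it. The second interval lies above that of SPRY4 with the block, -1.79 to -1.13, but the difference between the changes of these genes was not tested. DUSP6 passed in a single setting added after the data were seen, the block with quantile normalization, with a limma adjusted p of 0.0496.

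DUSP1 encodes a nuclear phosphatase of the stress kinases JNK and p38 as well as of ERK, and is an immediate-early gene itself. Its values were 7.11, 8.81 and 8.75 in untreated and 6.98, 8.23 and 8.07 in decitabine arrays. Both arrays of replicate 1 were lower than the other 4, and the untreated arrays spanned 1.70, more than any of the other 8 genes. The change of -0.46 (SE 0.51) had a limma adjusted p of 0.917, or 0.109 with the block. Pair differences were -0.13, -0.58 and -0.68, so the pair of replicate 1, whose arrays also had the higher medians, showed the smallest step. The part of that array difference in the values of DUSP1 was not tested.

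DUSP4, a further nuclear phosphatase of ERK and JNK, was the only one of the 9 genes with a change above 0 in the test without a block, and it stayed above 0 in each of the 16 alternative settings that kept it. Its values were 3.21, 2.75 and 3.11 in untreated and 3.52, 3.39 and 3.42 in decitabine arrays. All decitabine arrays were above all untreated arrays, by 0.31, 0.64 and 0.31 in the pairs. The change of 0.42 (SE 0.21) did not pass the test, with a limma adjusted p of 0.455, or 0.100 with the block. In all 6 arrays DUSP4 was below the median of named genes, which ran from 3.40 to 3.95, and it was left out when the dimmer 50% of genes were removed. Groups without overlap occurred for 20.1% of all genes, 8.74% with decitabine lower and 11.3% with it higher. Among the 9 genes there were 4 of the former kind and 1 of the latter.

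**Figure D2:**
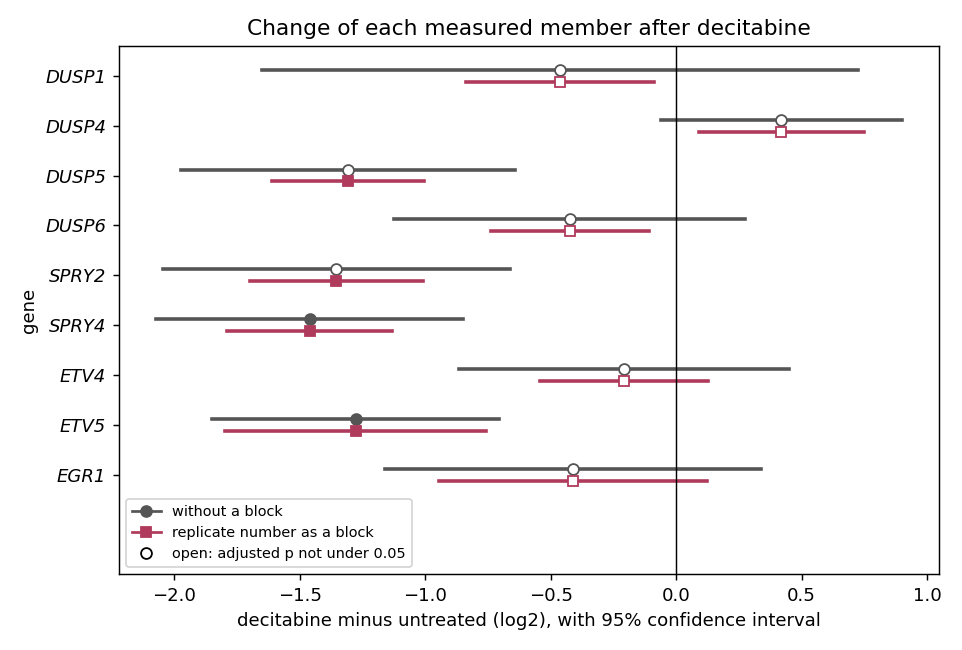
Change of each of the 9 genes (y axis) as decitabine minus untreated on the log2 scale (x axis) with its 95% confidence interval from limma, without a block (grey circles) and with the replicate number as a block (red squares). Filled symbols have an adjusted p under 0.05: SPRY4 and ETV5 in both fits, DUSP5 and SPRY2 with the block only.

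ETV5 encodes a transcription factor of the PEA3 group of the ETS family, which acts downstream of ERK. Its values were 6.19, 6.35 and 6.80 in untreated and 5.48, 4.99 and 5.04 in decitabine arrays. The groups did not overlap, and the pair differences of -0.71, -1.36 and -1.76 differed more between pairs than those of SPRY4 or DUSP5. The untreated mean was 6.45 ± 0.32 and the decitabine mean 5.17 ± 0.27 (SD, n = 3 each), a change of -1.28 (SE 0.25, 95% confidence interval -1.85 to -0.70, limma adjusted p = 0.0356). With the block its limma adjusted p was 0.0168. Leaving out the array of replicate 2 or 3 from either group ended the call (limma adjusted p of 0.123 to 0.160). It was also lost with each array centred on its median (0.0776), and when adjusted over all features (0.0757).

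ETV4 belongs to the same PEA3 group as ETV5. Its values were 5.35, 5.62 and 6.12 in untreated and 5.35, 5.21 and 5.91 in decitabine arrays. The groups overlapped, and the pair of replicate 1 had no difference, while the other pairs had -0.41 and -0.21. The change of -0.21 (SE 0.29) had a limma adjusted p of 0.960, or 0.387 with the block, and a 95% confidence interval of -0.86 to 0.45. Without untreated replicate 3, its highest array, the change was 0.005. The intervals of ETV4 and ETV5 with the block were -0.54 to 0.13 and -1.80 to -0.76, and the difference between their changes was not tested. The third factor of the group, ETV1, is no member and is named after its values were seen. It read 6.07, 6.56 and 6.32 in untreated and 5.84, 5.93 and 5.49 in decitabine arrays. All decitabine arrays were lower, but the change of -0.56 (SE 0.23) did not pass, with a limma adjusted p of 0.314, or 0.0701 with the block.

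EGR1, a zinc finger factor, is the textbook immediate-early gene of this pathway. Its values were 5.08, 3.79 and 4.57 in untreated and 4.13, 3.94 and 4.14 in decitabine arrays. The untreated arrays spanned 1.29 around the narrow decitabine range of 0.20, and the pair differences of -0.95, 0.15 and -0.43 did not share a sign. The change of -0.41 (SE 0.32) had a limma adjusted p of 0.779, or 0.288 with the block, and a 95% confidence interval of -1.16 to 0.34. A second feature of EGR1 gave -0.32 (SE 0.43). The window at the EGR1 start, chr5:138465229-138465528 on the plus strand, is shown as the example of a promoter of this class, with its CArG boxes in capitals, the element bound by the serum response factor.
EGR1: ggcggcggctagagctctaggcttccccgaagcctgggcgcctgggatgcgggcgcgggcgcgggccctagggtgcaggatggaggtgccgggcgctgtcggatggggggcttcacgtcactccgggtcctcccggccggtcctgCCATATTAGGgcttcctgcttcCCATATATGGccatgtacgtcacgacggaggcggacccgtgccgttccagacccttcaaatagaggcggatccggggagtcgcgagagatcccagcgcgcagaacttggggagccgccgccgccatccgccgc
The 2 CArG boxes began 105 and 83 bases before the start, and 1.29% of all windows held any. The window also held a single EGR site, 198 bases before the start, and 33 CG dinucleotides. The DUSP1 window, not shown, held 36 CG dinucleotides and a cyclic AMP response element 125 bases before the start.

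Across the members, 6 of 9 were lower in all 3 pairs (DUSP1, DUSP5, DUSP6, SPRY2, SPRY4 and ETV5), DUSP4 was higher in all 3, and ETV4 and EGR1 were neither. Of all genes, 21.8% were lower and 22.9% higher in every pair. With both arrays of replicate 1 left out, SPRY4, ETV5, SPRY2 and DUSP5 fell, as they did in quantile-normalized values. When the array of replicate 2 or 3 was left out of either group, limma called 0 of the 9 genes, and 4 or 5 of them were lower at an unadjusted p under 0.05. In those 4 settings, 0.873% to 1.34% of all genes were called, against 3.03% with all arrays. When adjusted over all 48226 features, limma also called 0 of the 9, with 4 lower at an unadjusted p under 0.05.

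**Figure D3:**
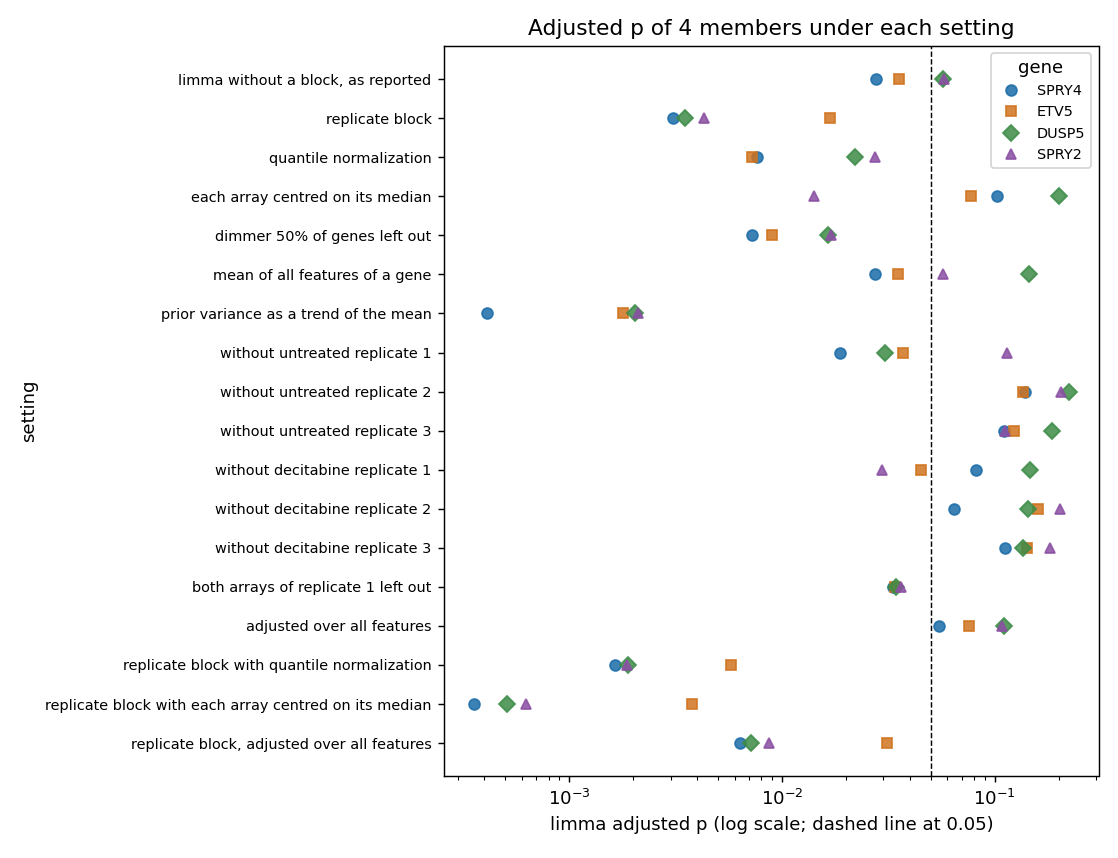
Adjusted p from limma (x axis, log scale, dashed line at the threshold of 0.05) of SPRY4, ETV5, DUSP5 and SPRY2 under each setting (y axis). All 4 genes lie below the threshold in each setting with the block, and all lie above it without untreated replicate 2 or 3, without decitabine replicate 2 or 3, and when adjusted over all features.

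Upstream and parallel genes of the pathway were listed to set these changes in context, and 125 of 175 listed genes that are not members were measured. Of these 2 rose and 6 fell without the block, 6.40% called against 3.03% of all genes, and 11 rose and 22 fell with it, against 7.79% and 5.37% of all genes in that fit. Their median change was -0.04. Among 18 ligands EREG (epiregulin, a ligand of EGFR) fell and none rose; EREG read 9.99, 9.93 and 9.74 in untreated and 7.93, 7.99 and 7.62 in decitabine arrays, a change of -2.04 (SE 0.21, limma adjusted p = 0.00276). It kept its call with any single array left out. Among 18 receptor tyrosine kinases, EGFR and AXL fell and none rose, while with the block 2 fell and 2 rose, IGF1R (change 0.99, SE 0.35, limma adjusted p 0.237, and 0.0118 with the block) and MERTK (change 1.27, SE 0.29, limma adjusted p 0.0622, and 0.0198 with the block). EGFR, the receptor of epiregulin, read 8.08, 8.30 and 8.29 in untreated and 7.06, 7.15 and 7.01 in decitabine arrays, a change of -1.15 (SE 0.19, limma adjusted p = 0.0195), and AXL changed by -1.79 (SE 0.19). With the block 7 ligands fell and 1 rose.

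Of 21 measured adaptors, RAS proteins and kinases of the cascade, MKNK1, a kinase that ERK activates, rose by 1.04 (SE 0.21, limma adjusted p = 0.0466) and none fell. With the block 3 rose and 2 fell, the latter being MKNK2, a paralogue of MKNK1, with a change of -1.02 (SE 0.31, limma adjusted p 0.158, and 0.00783 with the block), and RRAS2, which encodes a RAS-related protein, with -0.57 (limma adjusted p 0.0375 with the block). MKNK2 was lower in all decitabine arrays. Over all genes, 2.01% rose and 1.02% fell without the block, and 7.79% rose and 5.37% fell with it. HRAS changed by 0.03 (SE 0.27), MAP2K1 and MAP2K2, which encode the MEK kinases, by 0.25 (SE 0.20) and -0.23 (SE 0.33), and MAPK3, which encodes an ERK, by 0.55 (SE 0.30), with limma adjusted p of 0.530 to 1.00. MAPK3 had an adjusted p of 0.0378 with the block. Of 22 other negative regulators, PEA15, which holds ERK in the cytoplasm, fell by 1.13 on the log2 scale (SE 0.22, limma adjusted p = 0.0356) and none rose. With the block 5 fell, among them the further Sprouty gene SPRY3 (change -1.14, adjusted p 0.0223) and the phosphatase genes DUSP10 and DUSP16, and 1 rose, NF2. These 4 genes, like IGF1R, MERTK, MKNK2 and RRAS2, are named after their values were seen.

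Of 33 other immediate-early and transcriptional outputs, 2 fell and 1 rose, and with the block 6 fell and 2 rose. Over all genes, 1.02% fell and 2.01% rose without the block, and 5.37% fell and 7.79% rose with it. FOSL1, an AP-1 subunit that follows sustained ERK activity, averaged 8.02 ± 0.16 in untreated and 6.97 ± 0.11 in decitabine arrays (SD, n = 3 each), a change of -1.04 (SE 0.20, limma adjusted p = 0.0328), and the ETS factor ETS1 changed by -1.19 (SE 0.21, limma adjusted p = 0.0249). BCL2L11, the gene of the cell death protein BIM, which ERK signalling holds down in many cells, rose by 1.45 (SE 0.26, limma adjusted p = 0.0270). It read 2.65, 2.69 and 2.43 in untreated arrays, where the median of named genes was 3.40 to 3.87, and 4.38, 4.19 and 3.54 in decitabine arrays. Like DUSP4, it was left out when the dimmer 50% of genes were removed. FOS changed by -0.10 (SE 0.24), MYC by -0.86 (SE 0.45) and CCND1 by -0.06 (SE 0.22), and of these MYC alone had an adjusted p under 0.05 with the block (0.00940). SPRY2, SPRY4, DUSP4, DUSP6, ETV4 and ETV5 are also part of a published score of MAPK output with CCND1, EPHA2 and EPHA4, and those 3 further genes had changes of -0.06 to 0.07 and no call in either fit. No gene of these 3 passed at an unadjusted p under 0.05 in either limma fit. Among 13 genes of the parallel JNK and p38 cascades limma called 0, and 2 rose with the block. At an unadjusted p under 0.05 without the block, 2 were higher and 0 lower, against 8.13% of all genes higher and 5.79% lower.

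Of the 8 pathway genes called, EREG and AXL kept their call with each array left out in turn, FOSL1 and MKNK1 lost it in all 6 cases, and the calls of EGFR, PEA15, ETS1 and BCL2L11 were lost when untreated replicate 2 or 3 was left out, and when decitabine replicate 1 or 2 was. EGFR, PEA15 and ETS1 lost theirs without decitabine replicate 3 too. Limma adjusted p in the lost cases was 0.0584 to 0.193.

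**Figure D4:**
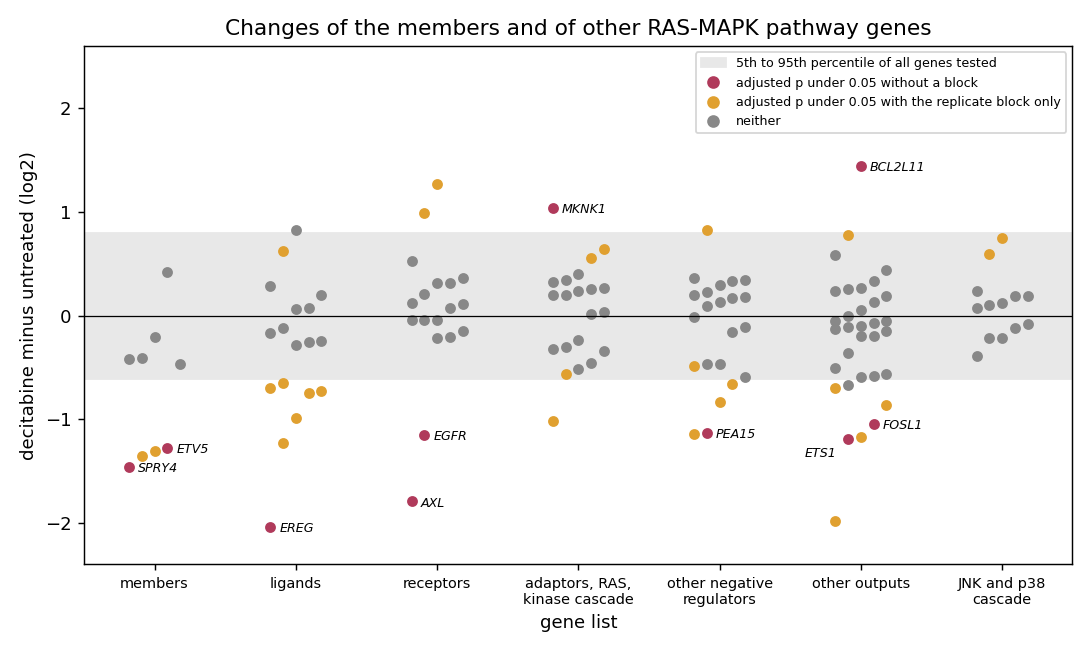
Changes (decitabine minus untreated, log2, y axis) of the 9 measured members and of other pathway genes by list (x axis), a point per gene. The grey band spans the 5th to 95th percentile of all genes tested, -0.62 to 0.79. Red points passed without a block and are named, and orange points passed with the block only. SPRY4 and ETV5 lie below the band beside EREG, AXL, EGFR, PEA15, FOSL1 and ETS1, while MKNK1 and BCL2L11 lie above it.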

How the data were processed

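The submitters' processing notes name the Transcriptome Analysis Console as the program with which the authors made the deposited table of array values, with no version; how arrays were normalized and filtered is not stated. With a range of 0.17 to 12.89, the deposited values were taken to be log2 expression, although no source names the log base, so each fold rests on that reading. Sequencing depth does not apply to arrays, whose number (3 per group) limits precision here.

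Of 48226 features, 16098 carried a single symbol, updated by Entrez Gene ID through RefSeq (GRCh38.p14), giving 14884 genes. Groups were compared with limma 3.58.1 (lmFit, eBayes; R 4.3.3), two-sided, with Benjamini-Hochberg adjustment over these genes, no further normalization and no filter. The fit was tested on simulated data. Replicate numbers come from the sample titles. Deviations from group means correlated at 0.682, 0.595 and 0.558 between same-numbered arrays and at -0.483 to -0.006 between others, so the numbers were taken to pair the samples. Such deviations cancel within a group, so positive values for same-numbered arrays make the others negative on balance. The negative values are therefore no separate evidence of pairing.

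Named were all measured members, the pathway genes past the threshold, at most 6 per list, and 14 fixed upstream and output genes where measured. The members and lists were chosen with earlier results of these data known. Alternatives were the block, quantile normalization, median centring, a filter on dim genes, averaged features, a variance trend, adjustment over all features and leaving out arrays.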

Additional observations from a re-analysis of the deposited data

How the results depend on the processing

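The 9 members kept the direction of their change in all alternatives except ETV4, whose change ran from -0.42 to 0.005 with single arrays left out, the latter without untreated replicate 3. Against 2 members called without a block, 4 were called with the replicate block (13.2% of all genes called), with quantile normalization (6.30%), without the dimmer 50% of genes (13.3%), with a variance trend (7.81%), and without both arrays of replicate 1 (2.61%). With median centring 1 (SPRY2) was called (2.49%), and when adjusted over all features 0 (1.79%; limma, with 4 at an unadjusted p under 0.05). With single arrays left out the count ran from 0 to 3 (0.873% to 3.20%). Settings added after the data were seen joined the block to quantile normalization (5, with 15.3% of all genes), median centring (4, 14.4%) or adjustment over all features (4, 7.98%). Of 125 pathway genes, 8 were called in the main test (3.03% of all genes), 33 with the replicate block, 14 with quantile normalization and 4 with median centring. Without the dimmer genes, 16 of the 91 pathway genes left were called. There were 20 with a variance trend, 2 over all features, and 2 to 8 with single arrays left out. The shares of all genes called in these settings are those given above beside the members. The added settings gave 37, 35 and 20 in the same order. Over all 14884 genes the block raised the count from 451 to 1959, so counts of members differ between these fits against different backgrounds. Without untreated or decitabine replicate 1, the median change of all genes moved by 0.135 and -0.118. The causes of these differences were not tested.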
